A study of Mus musculus with 8 samples.

Results

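This report describes 7 genes that red blood cells and their precursors use, in lung RNA of mice with and without an allergic airway challenge. They are the alpha-globin genes Hba-a1 and Hba-a2, the beta-globin genes Hbb-bt and Hbb-bs, the heme synthesis gene Alas2, and the membrane genes Slc4a1 and Epb42. They were taken by name, and their probes were found through the RefSeq accession that each array feature carries. Of the 22911 named genes with a probe on the array, these are 7 by name and 6 by probe, since no feature carried the accession of Hbb-bs. Epb42 was not well above background on any array, so 5 members entered the tests, among 16571 genes tested in all.

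The lungs came from 8 female BALB/c mice, 2 in each of 4 groups, bought at 4 weeks of age and housed for 2 weeks before the feeding began. NT mice ate standard feed and were neither sensitized nor challenged. The other 6 mice were sensitized by injection of ovalbumin (OVA) with alum from Day 42 on and then inhaled an OVA aerosol from Day 63 to Day 69. Ctrl-F ate standard feed, Cap-F ate feed with carbonate apatite particles that held no oligonucleotide, and ODNcap-F ate feed with the same kind of particles holding the CpG oligodeoxynucleotide MsST, each for 70 days. Lungs of all groups were taken on Day 70, and 1 array of 1 colour was hybridised per mouse. Per the paper, serum and bronchoalveolar lavage fluid were also collected that day in the experiments that gave lungs. Whether the lungs were perfused to clear them of blood is not given in the sources used here.

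Hemoglobin is built from alpha-globin and beta-globin chains, each holding a heme group. Alas2 is the erythroid form of the enzyme that starts heme synthesis, Slc4a1 encodes band 3, the anion exchanger of the red cell membrane, and Epb42 encodes protein 4.2, which ties band 3 to the membrane skeleton. Mature red cells have no nucleus, and in mouse blood the young red cells, the reticulocytes, still carry globin RNA, so a lung sample that holds blood yields these transcripts. Mouse strains differ at the beta-globin locus. BALB/c carries the pair Hbb-b1 and Hbb-b2, while Hbb-bs and Hbb-bt are the pair of the reference strain. What the Hbb-bt probe reads in BALB/c was not tested.

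The promoters of 3 members are shown, 1 each of alpha-globin, beta-globin and heme synthesis: Hba-a1, whose probes disagreed, Hbb-bt, which fell, and Alas2, which fell more. Each sequence is the 250 bases before the gene's start in RefSeq (GRCm38.p6), written 5′ to 3′ on the gene's strand. Capitals mark matches, on either strand, to a GATA motif, to CCAAT, to ATATAA, or to CCNCNCCC, in which N is any base. The GATA motif is GATA with an A or a T before it and an A or a G after it. The motifs were chosen after the sequences were seen, and matches that touch or overlap run together in capitals. Hba-a1 lies at chr11:32283422-32283671 on the plus strand, Hbb-bt at chr7:103813924-103814173 on the minus strand, and Alas2 at chrX:150547167-150547416 on the plus strand.
Hba-a1: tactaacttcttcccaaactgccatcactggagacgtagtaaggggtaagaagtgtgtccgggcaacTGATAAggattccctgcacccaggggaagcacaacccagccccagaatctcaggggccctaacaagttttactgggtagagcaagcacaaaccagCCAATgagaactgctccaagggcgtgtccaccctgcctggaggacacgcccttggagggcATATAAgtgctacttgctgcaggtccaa
Hbb-bt: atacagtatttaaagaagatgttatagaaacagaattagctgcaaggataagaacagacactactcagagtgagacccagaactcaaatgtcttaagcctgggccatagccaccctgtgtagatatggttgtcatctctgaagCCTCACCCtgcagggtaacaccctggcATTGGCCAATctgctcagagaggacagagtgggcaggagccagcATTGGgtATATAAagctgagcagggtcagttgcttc
Alas2: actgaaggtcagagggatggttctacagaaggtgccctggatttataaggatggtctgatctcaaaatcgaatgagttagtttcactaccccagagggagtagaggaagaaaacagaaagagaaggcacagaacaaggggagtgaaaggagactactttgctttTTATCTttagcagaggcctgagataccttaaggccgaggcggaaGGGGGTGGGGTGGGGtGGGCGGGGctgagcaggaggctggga

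Hba-a1 held 1 GATA match, 183 bases before the start, with 1 CCAAT and 1 ATATAA match, the last 28 bases before the start. The Hba-a2 window had the same 3 matches, and once shifted by 3 bases its 247 shared bases were 100% identical to those of Hba-a1. Hbb-bt held 3 CCAAT, 1 ATATAA and 1 CCNCNCCC match and no GATA match in this window. Hbb-bs had 1 match of each of the 4 kinds, and its best ungapped alignment to Hbb-bt was 51% identical. Alas2 held 1 GATA match, 86 bases before the start, and 4 CCNCNCCC matches, some of which overlap. Epb42 held 1 GATA match, and Slc4a1 had no entry. Over 32851 promoter windows of the same length, 26.5% held a GATA match, 33.8% a CCAAT match, 9.1% an ATATAA match and 45.9% a CCNCNCCC match. These matches describe letters and no bound factor.

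Levels are log2 intensities after quantile normalization over the 8 arrays, and a difference of 1 on this scale is a 2-fold change. In lungs of all challenged groups, beta-globin Hbb-bt, Alas2 and Slc4a1 were lower than in NT by 2.51-fold to 4.65-fold, with limma's adjusted p under the 0.05 threshold in each comparison. The alpha-globin genes Hba-a1 and Hba-a2, read by the probes with the highest mean signal, were lower by 1.11-fold to 1.15-fold and did not pass the test. The other Hba-a1 probe was lower by 2.26-fold, 2.62-fold and 2.61-fold and passed it in each comparison. None of the 5 tested members differed between the challenged groups by the test. In bulk lung RNA, fewer cells of a type and less RNA per cell cannot be told apart.

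The whole series bears on how these values are read. All arrays sat on a single slide, NT with Ctrl-F in its row 1 and Cap-F with ODNcap-F in its row 2. Groups that shared a row lay in different columns, so place and group cannot be told apart in any comparison. The share of probes well above background was 64.8% and 65.0% on the NT arrays and 61.3% to 62.8% on the challenged ones, and its part in the differences was not tested. No spot was saturated, and mice of a group correlated at 0.994 to 0.996 over the 37116 probes kept for testing. The lung epithelial marker Sftpc was among the brightest probes on every array, as the tissue label has it. The challenge changed much of the transcriptome. All 8 allergen response genes of a fixed list were higher in each challenged group than in NT, such as Clca1, a goblet cell secreted protein, at log2 levels of 16.68 to 17.23 in the challenged mice against 2.65, not well above background, and 5.38 in NT. Wherever 3 differences from NT stand together, here and in what follows, they belong to Ctrl-F, then Cap-F, then ODNcap-F. With 2 mice a group, limma's p-values rest on the spread within all groups of a fit, drawn towards the spread of other probes. They speak for these mice only.

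**Figure D1:**
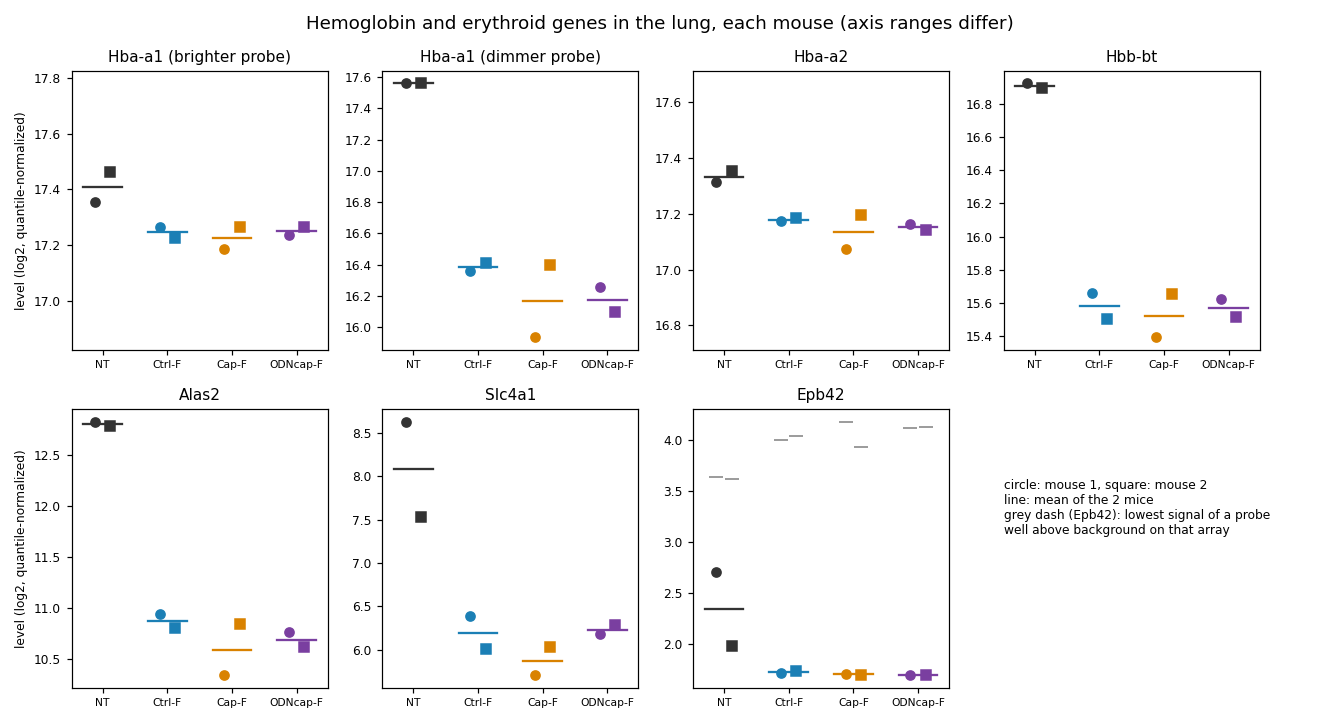
Log2 quantile-normalized level (vertical axis, a separate range in each panel) of the 7 member probes in each mouse, by group on the horizontal axis, with circles and squares for the 2 mice and a line at their mean. Both NT mice lie above all 6 challenged mice in every panel, and Epb42 lies below the lowest signal of a probe well above background, drawn as grey dashes.

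Hbb-bt, the beta-globin member with a probe, had levels of 16.92 and 16.90 in the NT mice. The levels were 15.66 and 15.50 with Ctrl-F, 15.40 and 15.65 with Cap-F, and 15.62 and 15.52 with ODNcap-F. The NT mice were nearly equal, and all 6 challenged mice lay well below them in a narrow band. The linear signal before normalization was 115000 and 117000 in NT and between 47100 and 53800 in the challenged mice. Against NT, Hbb-bt fell by 1.33 ± 0.11 (SE, n = 2 and 2 mice) in Ctrl-F, with a limma adjusted p of 0.00022. It fell by 1.38 in Cap-F (limma adjusted p = 0.000229) and by 1.34 in ODNcap-F (limma adjusted p = 0.000245). In the comparison of Ctrl-F with NT, 7.01% of tested genes had a lower difference.

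The alpha-globin genes gave the brightest signals of all members, and they are near-identical in sequence, so their probes may read either transcript. Hba-a1 had 2 probes, each printed in 10 spots per array. The one with the higher mean over the 8 arrays, A_51_P169730, stands for the gene and is called the brighter here, although the other was brighter in both NT mice. Chosen by this mean, the gene is read by the probe that fell less. It read 17.35 and 17.46 in the NT mice, 17.27 and 17.22 in Ctrl-F, 17.19 and 17.27 in Cap-F, and 17.23 and 17.27 in ODNcap-F. Both NT mice were above all challenged mice, by a margin smaller than the gap between the NT mice themselves. The differences from NT were -0.16, -0.18 and -0.16, with limma adjusted p of 0.0969, 0.0761 and 0.107.

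Hba-a2 had a similar course, with 17.32 and 17.35 in the NT mice, 17.17 and 17.19 in Ctrl-F, 17.07 and 17.20 in Cap-F, and 17.16 and 17.14 in ODNcap-F. Its differences from NT were -0.15, -0.20 and -0.18, with limma adjusted p of 0.102, 0.0528 and 0.0666. With Cap-F mouse 2 left out, the Cap-F difference was -0.27 and its limma adjusted p was 0.0495.

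The dimmer Hba-a1 probe, A_55_P1962303, gave another picture. It read 17.56 in each NT mouse, where it held rank 5 of 56605 probes on both arrays, and quantile normalization gives equal ranks equal values. It read 16.36 and 16.41 in Ctrl-F, 15.94 and 16.40 in Cap-F, and 16.25 and 16.10 in ODNcap-F, at ranks from 98 to 210. Its linear signal was 205000 and 206000 in NT and between 70400 and 91100 in the challenged mice, against 175000 and 179000 in NT and between 152000 and 163000 for the brighter probe. The dimmer probe fell by 1.17, 1.39 and 1.38, with limma adjusted p of 0.00117, 0.000709 and 0.000676. The probes of Hba-a1 therefore disagree on whether the gene passed the test, and which of them follows the transcript was not tested.

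The range of the array near its top was examined beside the alpha-globin values. Of the 32 probes with an NT mean of at least 17, 28.1% were called in Ctrl-F against NT, and their differences ran from -1.27 to 0.21. Of the 162 probes with an NT mean from 16 to 17, 58% were called, and of the 4100 from 12 to 16, 70.3%. The brightest spot of any member reached 219074, below the saturation value of 776977. The part of signal brightness in the small alpha-globin differences was not tested.

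Hbb-b1 and Hbb-b2, the beta-globin pair of BALB/c, are no members and were added after their values were seen. Hbb-b1 had 14.94 and 14.82 in NT and between 12.46 and 12.98 in the challenged mice. It fell by 1.92, 2.17 and 2.23. Hbb-b2 had 16.60 and 16.57 in NT and between 14.68 and 15.04 in the challenged mice, and it fell by 1.55, 1.73 and 1.77. Their limma adjusted p ranged from 0.000139 to 0.000255. The probes of Hbb-bt, Hbb-b1 and Hbb-b2 may cross-hybridise, which was not tested.

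Alas2 had the steepest course of the members that were bright in every mouse. Its levels were 12.82 and 12.78 in the NT mice, 10.94 and 10.80 in Ctrl-F, 10.34 and 10.84 in Cap-F, and 10.76 and 10.61 in ODNcap-F. The NT mice lay close together and far above the highest challenged mouse, and the Cap-F mice were the farthest apart of any group. The linear signal was 6810 and 6870 in NT and 1440 to 1870 in the challenged mice. Alas2 fell by 1.93 ± 0.17 (SE, n = 2 and 2 mice) in Ctrl-F, a 3.81-fold reduction, with a limma adjusted p of 0.000252. It fell by 2.21 in Cap-F (4.63-fold, limma adjusted p = 0.000191) and by 2.11 in ODNcap-F (4.33-fold, limma adjusted p = 0.000212). Of all tested genes, 2.36%, 1.11% and 1.14% had a lower difference in these comparisons.

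Slc4a1 was dim and more variable. The NT mice read 8.63 and 7.54, while Ctrl-F read 6.39 and 6.003, Cap-F 5.70 and 6.03, and ODNcap-F 6.18 and 6.28. Groups did not overlap, but the gap between the NT mice was larger than that within any other group. Slc4a1 fell by 1.89 ± 0.36 (SE, n = 2 and 2 mice) in Ctrl-F, by 2.22 in Cap-F and by 1.86 in ODNcap-F, with limma adjusted p of 0.00501, 0.00301 and 0.00569. Leaving out single mice moved the Ctrl-F value between -2.44 and -1.35, both ends set by which NT mouse was left out, and the call held. With normexp background correction, which models signal and background of each raw spot, it fell by 1.23, 1.43 and 1.27 and stayed called. Epb42 read 2.71 and 1.98 in NT and 1.70 to 1.74 in the challenged mice, under the lowest signal of any probe well above background, which was 3.61 to 4.18 over the arrays, so no fold is given.

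In Ctrl-F against NT, 3 of the 5 tested members were called lower, where 36.9% of all tested genes were called lower. In Cap-F against NT it was 3 of 5, beside 34.6% of genes. In ODNcap-F against NT it was 3 of 5, beside 35.0% of genes. The same 3 members, Hbb-bt, Alas2 and Slc4a1, were called each time, and these comparisons share the NT mice. Both NT mice were above all 6 challenged mice for each of the 5 tested members, as they were for 41.7% of the 16571 genes. The median difference of all tested genes was -0.09, -0.10 and -0.09. Within row 1 of the slide, where Ctrl-F and NT lie in different columns, a fit of these groups alone gave limma adjusted p of 0.00165 for Hbb-bt, 0.000821 for Alas2 and 0.0222 for Slc4a1.

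**Figure D2:**
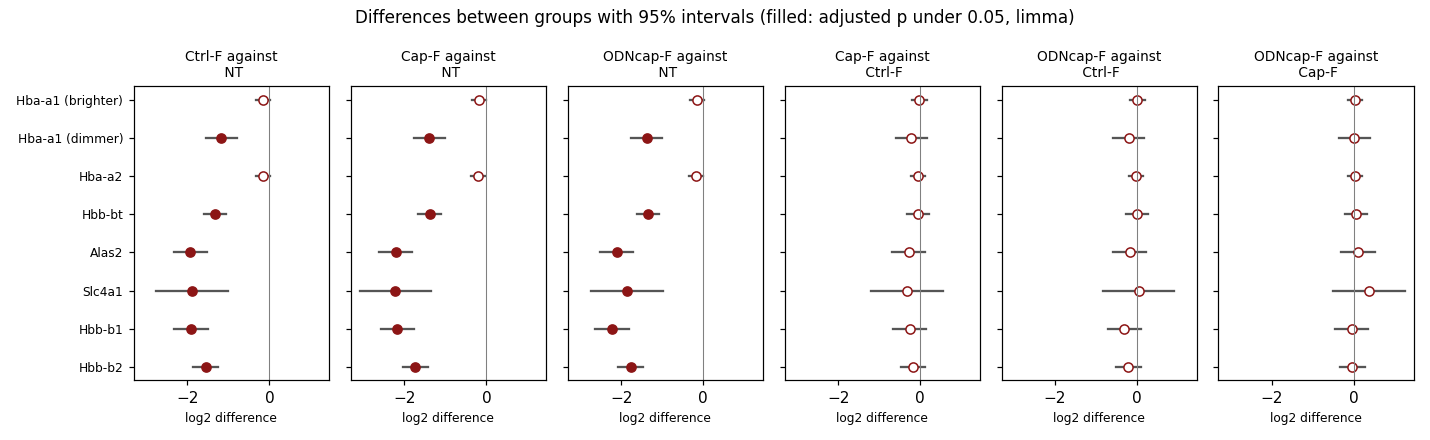
Log2 difference (horizontal axis) of each member probe above background, and of Hbb-b1 and Hbb-b2, in the 6 comparisons of groups, with 95% intervals from limma and filled points for an adjusted p under 0.05. Brighter and dimmer Hba-a1 probes are named by their mean over the 8 arrays. The 3 panels against NT show Hbb-bt, Alas2, Slc4a1 and the dimmer Hba-a1 probe below 0, and every interval in the 3 panels among challenged groups includes 0.

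The feeds were compared among the challenged groups. None of the 5 tested members was called by limma in Cap-F against Ctrl-F, ODNcap-F against Ctrl-F or ODNcap-F against Cap-F, where 0% of all tested genes were called, and none reached an unadjusted p under 0.05, while 15.3%, 5.81% and 11.7% of all genes did. Hbb-bt differed by -0.06, -0.01 and 0.05. Its 95% intervals, -0.33 to 0.21, -0.28 to 0.26 and -0.23 to 0.32, leave room for changes of about that size in either direction. Alas2 differed by -0.28 (95% interval -0.69 to 0.13) in Cap-F against Ctrl-F, by -0.18 (-0.59 to 0.23) in ODNcap-F against Ctrl-F and by 0.10 (-0.31 to 0.51) in ODNcap-F against Cap-F.

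Slc4a1 differed most, by 0.36, between ODNcap-F and Cap-F, with a 95% interval from -0.51 to 1.23 and a limma adjusted p of 0.698. For Hba-a2 and the brighter Hba-a1 probe the intervals stayed between -0.22 and 0.20 over these 3 comparisons, and for the dimmer Hba-a1 probe between -0.59 and 0.38. By mean level the order of Alas2 was NT, Ctrl-F, ODNcap-F and Cap-F. The order of Slc4a1 was NT, ODNcap-F, Ctrl-F and Cap-F. For Slc4a1, the mice of neighbouring groups after NT overlapped, as did those of ODNcap-F and Cap-F for Alas2. For Alas2, both Ctrl-F mice, at 10.94 and 10.80, lay above both ODNcap-F mice, at 10.76 and 10.61. None of these differences between neighbours was called by limma. Cap-F mouse 1 was the lowest of the 6 challenged mice on all 6 member probes above background, and the highest was Ctrl-F mouse 1 on 3 of them.

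Genes around the members were read from fixed lists. Of the minor and embryonic globins, Hbq1b, a theta-like globin, was dim. It read 5.07 and 4.39 in NT and was not well above background on any challenged array, which sets it at least 1.64-fold, 1.6-fold and 1.53-fold lower, in the same order of groups (limma adjusted p = 0.0328, 0.00943 and 0.00828). Hbq1a was called too but read 4.05 and 3.81 in NT, so dim that no fold is given. Hba-x and Hbb-y were not above background on any array. Hbb-bh1 was well above background in every mouse, at 4.78 and 4.72 in NT and 4.49 to 5.03 in the challenged mice. Its differences of -0.11, 0.006 and -0.09 were not called by limma. Hbb-bh1 was named after its values were seen. The call of Hbq1b in Ctrl-F was lost without NT mouse 1 or Ctrl-F mouse 2, and in Cap-F without Cap-F mouse 1 (limma adjusted p up to 0.153 and 0.0506). The Ctrl-F call of Hbq1a was lost under 6 alternatives, among them each NT mouse left out (limma adjusted p up to 0.122).

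Heme synthesis did not move as a whole. Of the 8 other enzymes, 3 were lower and 2 higher in Ctrl-F, 3 and 1 in Cap-F, and 2 and 2 in ODNcap-F. Over all tested genes, 36.9%, 34.6% and 35.0% were called lower in these groups, and 28.1%, 26.1% and 27.2% higher. Each list count here and below is to be read beside these shares. The median difference was -0.18, -0.05 and -0.13. Alas1, the form of the first enzyme that most cells use, read 15.49 and 15.34 in NT and 14.07 to 14.45 in the challenged mice, and fell by 1.25, 1.11 and 1.13. Fech, which inserts iron into the ring in the last step, read 12.49 and 12.53 in NT and 11.51 to 11.76 in the challenged mice, and fell by 0.84, 0.99 and 0.87. Alad, which acts just after the first step, differed by -0.33, -0.29 and -0.16. It was called in Ctrl-F and Cap-F, and both calls were lost with each array scaled to its 75th percentile, the Ctrl-F call also without Ctrl-F mouse 2, and the Cap-F call also without NT mouse 1, NT mouse 2 or Cap-F mouse 2. In Ctrl-F, limma's adjusted p was 0.000585 for Alas1 and 0.00066 for Fech. The count of higher enzymes became 1 in Ctrl-F without NT mouse 1, NT mouse 2 or Ctrl-F mouse 2, became 1 in ODNcap-F without any of these or without Ctrl-F mouse 1 or ODNcap-F mouse 2 or with the replicate number as a block, and became 2 in Cap-F without either ODNcap-F mouse or with normexp background correction.

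Iron uptake and mitochondrial transport genes were split. Of 9 tested, 2 were lower and 5 higher in Ctrl-F, 2 and 4 in Cap-F, and 2 and 5 in ODNcap-F. Tfrc, the transferrin receptor, read 9.28 and 9.14 in NT and 10.24 to 10.44 in the challenged mice. It rose by 1.13, 1.07 and 1.11, the opposite direction to Alas2. Slc25a37, the mitochondrial iron importer mitoferrin-1, fell by 0.88, 0.89 and 0.98, and Abcb10, a transporter of the inner mitochondrial membrane, by 0.44, 0.54 and 0.34. Flvcr1, a heme exporter, rose by 0.79, 0.54 and 0.63, and its Cap-F call was lost without NT mouse 1 or Cap-F mouse 1. Without Cap-F mouse 1, 2 genes of the list were higher in Cap-F.

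**Figure D3:**
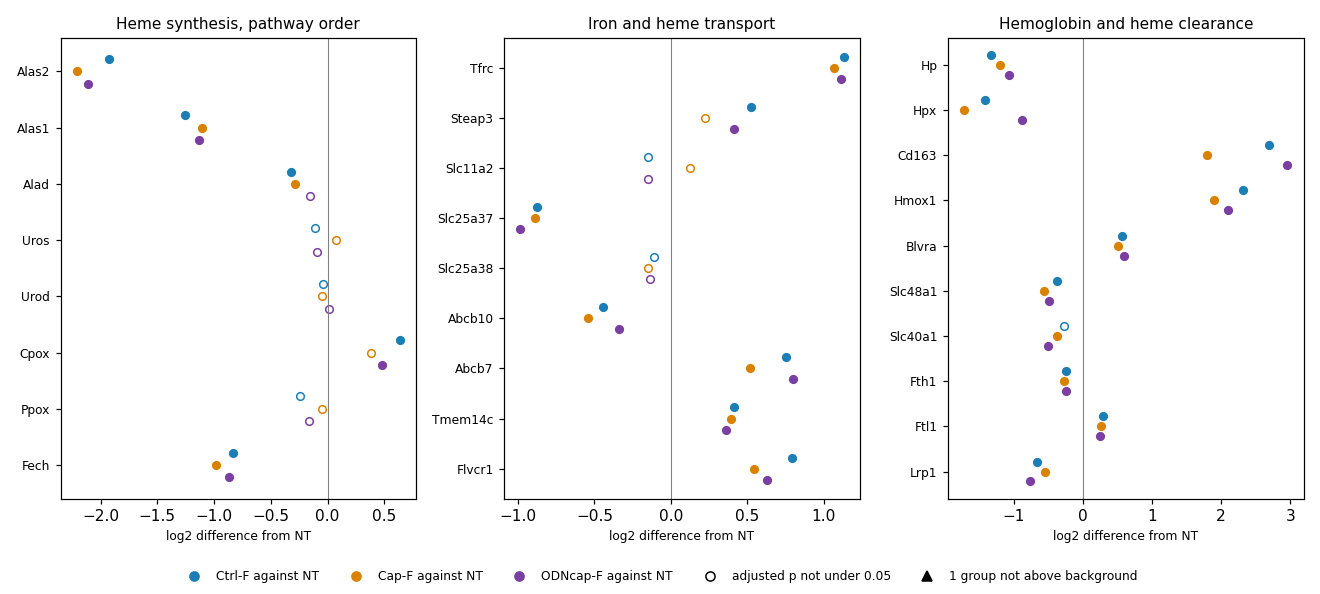
Log2 difference from NT (horizontal axis) of tested genes of heme synthesis in pathway order, of iron and heme transport, and of hemoglobin and heme clearance, with a colour for each challenged group and open symbols where the limma adjusted p was not under 0.05. Alas2, Alas1 and Fech lie to the left, Tfrc and Hmox1 to the right, and neither the pathway nor the transport list lies on one side.

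Membrane genes other than the members mostly went the way of Slc4a1. Of 12 tested, 7 were lower and 1 higher in Ctrl-F, 8 and 1 in Cap-F, and 7 and 1 in ODNcap-F. The median difference was -1.16, -1.16 and -0.95, and -0.89, -0.82 and -0.82 with 3 genes at the bound that background sets, beside the median of all genes near -0.1. With normexp background correction it was -0.44, -0.57 and -0.41. Tmod1, which caps actin filaments of the membrane skeleton, read 9.58 and 9.41 in NT and 7.83 to 8.29 in the challenged mice, and fell by 1.34, 1.67 and 1.34. Dmtn, an actin-bundling protein, fell by 1.35, 1.35 and 1.53, and Epb41, protein 4.1 of the spectrin skeleton, by 0.90, 0.80 and 0.87. Xk, which carries a blood group antigen, rose by 1.503, 1.64 and 1.71, from 4.03 and 4.08 in NT, and by 0.48, 0.51 and 0.62 with normexp. Many of these genes are used outside red cells.

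Genes of the Rh complex of the red cell were not called. Rhag, the Rh-associated glycoprotein, was not well above background on any array. Rhd, the Rh antigen gene, above background in every mouse, read 7.42 and 5.23 in NT and 4.86 to 6.05 in the challenged mice, so its groups overlapped, and its differences of -0.40, -0.97 and -0.99 did not pass the test. NT mouse 1 was the higher NT mouse for Slc4a1 and Rhd, and NT mouse 2 for Hba-a2 and the brighter Hba-a1 probe. Rhd was named, and this order picked, after the values were seen.

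Erythroid regulators split into opposite directions. Of 11 tested, 6 were lower and 4 higher in Ctrl-F, 5 and 4 in Cap-F, and 6 and 4 in ODNcap-F. Gata1, the main transcription factor of red cell precursors, which eosinophils and mast cells also use, read 8.05 and 7.73 in NT and 9.47 to 9.75 in the challenged mice. It rose by 1.72, 1.74 and 1.65, while the globin genes did not rise. Gfi1b, a repressor used in red cell and platelet precursors, rose by 2.07, 1.86 and 2.01, and by 1.29, 1.14 and 1.27 with normexp. Tal1, a partner of Gata1 that endothelium also uses, fell by 1.27, 1.26 and 1.24, and Epor, the erythropoietin receptor, by 1.30, 1.15 and 0.95. Klf1, the activator of beta-globin, was well above background on 2 arrays, which did not fill a group, and was not tested.

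Red cell enzymes and turnover genes were lower in 7 of 11 and higher in 3 in Ctrl-F, 6 and 2 in Cap-F, and 7 and 2 in ODNcap-F. Cat, catalase, which breaks down hydrogen peroxide, fell by 1.51, 1.31 and 1.58. Bpgm, which makes the red cell regulator of oxygen binding, fell by 0.56, 0.69 and 0.51. Blvrb, a biliverdin reductase, rose by 1.30, 1.03 and 1.04. Car1, a red cell carbonic anhydrase, differed by -0.22, 0.12 and -0.15 and was not called. Without NT mouse 1, 4 of 11 were lower in Ctrl-F and 4 in ODNcap-F, and without ODNcap-F mouse 1, 4 were lower in ODNcap-F.

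**Figure D4:**
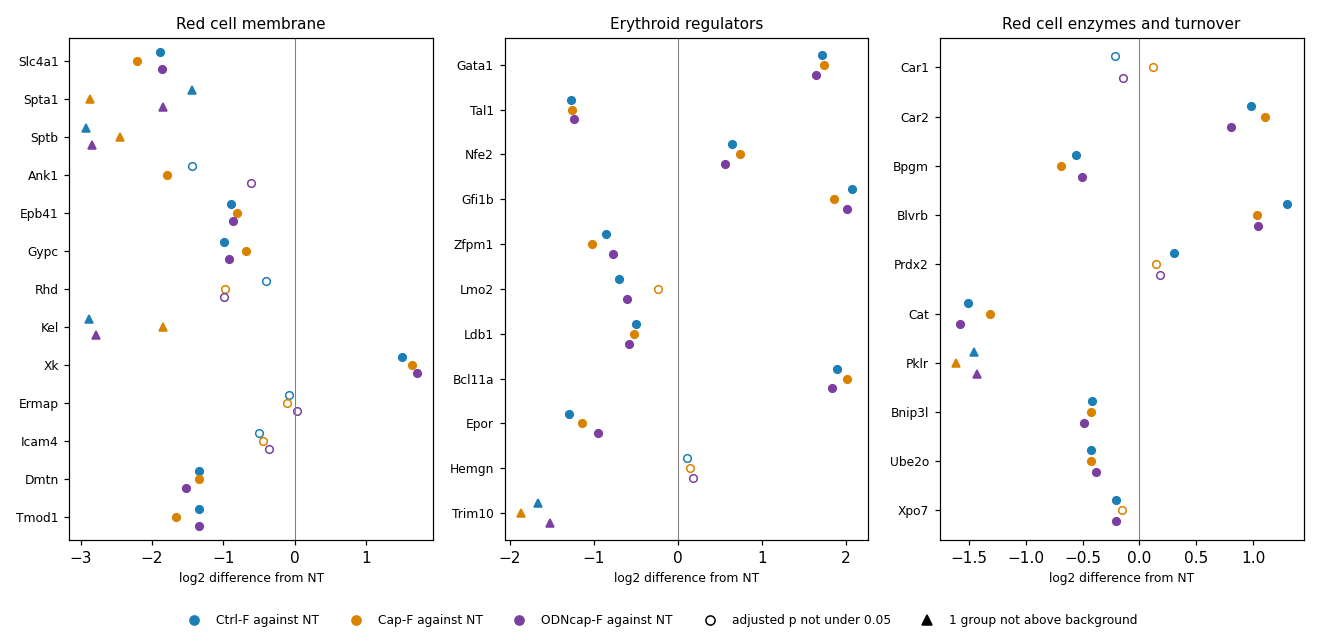
Log2 difference from NT (horizontal axis) of tested genes of the red cell membrane, erythroid regulator and red cell enzyme lists, coloured by challenged group, with open symbols where the limma adjusted p was not under 0.05 and triangles where a group was not above background, so that the plotted difference is no measured fold. Gata1 and Gfi1b lie to the right and Slc4a1, Tmod1, Tal1 and Cat to the left.

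Genes that handle free hemoglobin and heme changed in both directions, with 5 of 10 lower and 4 higher in Ctrl-F and 6 lower and 4 higher in each of the other groups. Hmox1, heme oxygenase, which breaks heme open, read 11.14 and 11.06 in NT and 12.92 to 13.45 in the challenged mice. It rose by 2.32, 1.90 and 2.10 (limma adjusted p = 1.83e-05, 4.13e-05 and 2.83e-05). Cd163, the macrophage receptor for hemoglobin bound to haptoglobin, rose by 2.69, 1.80 and 2.95, and Blvra, a biliverdin reductase, by 0.57, 0.50 and 0.59. Hp, haptoglobin, the plasma protein that binds free hemoglobin, read 16.31 and 16.40 in NT and 14.92 to 15.32 in the challenged mice, and fell by 1.32, 1.20 and 1.07. Without NT mouse 2, and without Cap-F mouse 2, 3 genes were lower and 3 higher in Cap-F.

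Markers of other blood and vessel cells moved beside the members. Of 11 platelet genes, 9 were lower and 1 higher in Ctrl-F, 8 and 1 in Cap-F, and 9 and 1 in ODNcap-F. Gp9, a platelet surface glycoprotein, read 9.71 and 9.66 in NT and 5.94 to 7.64 in the challenged mice, while Pf4, a platelet chemokine, rose by 0.90, 0.87 and 0.70. Their mean log2 level was 8.70 and 8.63 in NT and 6.66 to 7.48 in the challenged mice. Gp9 fell by 3.32, 2.10 and 3.26, Gp6, the collagen receptor of platelets, by 2.34, 1.73 and 2.26, and Ppbp, a platelet chemokine precursor, by 2.37, 1.73 and 2.38. With normexp Gp6 fell by 0.95, 0.82 and 1.04. Treml1, a receptor of platelet granules, fell by 2.14, 1.56 and 2.16.

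All 10 capillary endothelium genes were lower in each challenged group, and their mean log2 level was 12.83 and 12.91 in NT and 11.38 to 11.69 in the challenged mice. Kdr, a receptor for vascular growth factor, fell by 1.51, 1.49 and 1.32, and Cldn5, a tight junction protein of vessels, by 1.27, 1.16 and 1.09. Of 11 neutrophil genes, 4 were lower and 3 higher in Ctrl-F, 3 and 3 in Cap-F, and 4 and 3 in ODNcap-F, with mean levels of 10.42 and 9.83 in NT and 9.79 to 10.22 in the challenged mice. The neutrophil counts lay near the shares of all tested genes, 36.9%, 34.6% and 35.0% lower and 28.1%, 26.1% and 27.2% higher. Retnlg, a neutrophil secreted protein, rose by 2.21, 2.44 and 2.26, and S100a8, a calcium-binding protein of neutrophils, differed by -0.86, -0.60 and -0.95 and was not called. Without 1 of the Ctrl-F or Cap-F mice, the count of lower neutrophil genes in its group fell to 1 or 2.

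Lung epithelium had 3 of 7 genes lower in each group, with Hopx, of alveolar type I cells, down by 1.85, 1.85 and 1.73. Sftpc, a surfactant protein, differed by 0.04, 0.02 and 0.04. It read either 17.60 or 17.64 on each array, as quantile normalization gives equal ranks equal values, so these differences say little about its level. With normexp Sftpc differed by 0.12, 0.11 and 0.15 and was not called. With each array scaled to its 75th percentile, 2 genes of the list were lower and 1 higher in Ctrl-F and in ODNcap-F. The part of the blood, platelet and vessel content of the samples in the member differences was not tested.

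**Figure D5:**
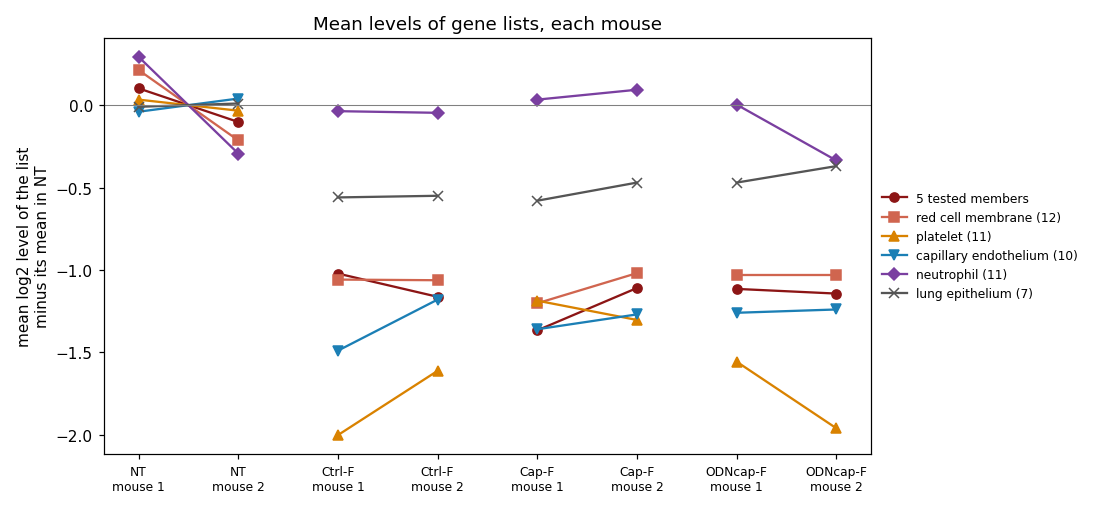
Mean log2 level of the 5 tested members and of 5 marker lists in each mouse, less the mean of the same list in NT (vertical axis), with the number of genes in parentheses and a line joining the 2 mice of a group. Over the challenged mice the values ran from -1.37 to -1.02 for the members, -1.20 to -1.02 for the membrane list, -2.0025 to -1.19 for the platelet list, -1.49 to -1.18 for the capillary list, -0.58 to -0.37 for the epithelial list and -0.34 to 0.09 for the neutrophil list. Red cell lists that are not drawn mostly moved less. They ran from -0.21 to -0.15 for heme synthesis, -0.43 to -0.295 for red cell enzymes and -0.03 to 0.13 for erythroid regulators. Iron and heme transport ran from 0.11 to 0.24, and the dim minor globins from -1.47 to -0.68.

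The pattern of the members over the 8 arrays was set against that of other genes, as a description with no test. Of 8591 candidates with an SD of at least 0.25, 1247 had a Pearson correlation above 0.95 with the mean of the 5 members. The points share arrays and a single large step between NT and the challenged mice. The highest were Otop1 (r = 0.997, rho = 0.93), Fry (r = 0.996, rho = 0.86), Rasgef1b (r = 0.995, rho = 0.79), Glb1l2 (r = 0.993, rho = 0.71) and Msi2 (r = 0.991, rho = 0.55). Otop1, a proton channel, read 7.43 and 7.11 in NT and 5.05 to 5.55 in the challenged mice.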

How the data were processed

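Lung RNA was labelled with 1 colour and hybridised to 8 Agilent SurePrint G3 mouse arrays. The deposited files hold spot intensity values read by the authors with Feature Extraction 11.0, per the file headers, and a table of log2 values that the authors quantile-normalized, which served as an alternative. Processed intensities were already background-corrected by the software. Control spots were left out, outlier spots were set missing, and log2 values were averaged per probe and then quantile-normalized over the 8 arrays. A probe was kept (37116 of 56605) if some group had it well above background in each of its mice. Names came from RefSeq accessions of the features (32994 probes matched), and the probe with the highest mean over the 8 arrays stood for a gene.

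Groups were taken from the sample labels. All 6 pairs of groups were compared in 1 fit with limma 3.58.1 (R 4.3.3), with Benjamini-Hochberg adjustment over all probes kept and a threshold of 0.05, and the script was tested on simulated data. The methods' local-pooled-error test was rebuilt as an alternative, as were other scalings, normexp background correction, filters, variance models and single mice left out. With 2 against 2 mice an exact permutation test cannot go below p = 0.333, so none is given. The number of arrays limits the precision. A fold against a group not above background on any array is a lower bound, the bright group's mean against, per array, the higher of the lowest signal well above background and the probe's own.

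The members and lists were chosen with earlier results of these data known. Named genes were all members, up to 4 genes of each list with the smallest p among those called against NT, the first gene of each list, and the 5 genes most correlated with the members. Genes outside this rule are said to be named after their values were seen, apart from genes given as undetected or not tested. Promoter sequences are from RefSeq, GRCm38.p6. Probe sequences were not used here. Some list genes count in the totals but are not reported here by name or drawn.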

Additional observations from a re-analysis of the deposited data

Results flagged for a closer look

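Car1, a red cell carbonic anhydrase, drew attention because its differences from NT had opposite directions in the challenged groups. It read 7.15 and 7.41 in the NT mice, 7.17 and 6.95 in Ctrl-F, 7.37 and 7.43 in Cap-F, and 7.15 and 7.11 in ODNcap-F. The difference from NT was -0.22 for Ctrl-F, 0.12 for Cap-F and -0.15 for ODNcap-F, none of them called by limma. The contrast of Cap-F with Ctrl-F, which tests whether these effects differ since the NT mice cancel, was 0.34 with a limma adjusted p of 0.252.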

How the results depend on the processing

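Of 273 values of a member's difference from NT under an alternative, 252 kept their direction and their side of the threshold, 0 reversed and 0 fell below it. The other 21, all of Hba-a1 or Hba-a2, passed it. With an intensity trend in limma's variance, all 5 tested members were called lower against NT in each challenged group, in place of 3, and 5 passed at an unadjusted p in Cap-F. The cause was not tested. With 1 mouse left out, 3 to 4 members were called in Cap-F against NT, 3 in each of the other comparisons with NT, and 0 among the challenged groups. With the dimmer Hba-a1 probe, chosen after seeing the data, Hba-a1 differed by -1.17, -1.39 and -1.38. Over all alternatives Hbb-bt ranged from -1.51 to -1.11, Alas2 from -2.47 to -1.84 and Slc4a1 from -2.77 to -1.23. Of 143 calls of list genes that the naming rule takes, 10 were lost under at least 1 of the scalings, the block or a mouse left out, all of Hbq1a, Hbq1b, Alad, Flvcr1, Ngp or Sftpb, and 0 changed sign.

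With the replicate number as a block, 3 members were called lower against NT in each challenged group, as without it, and no member call changed. Over the probes kept, the deviations of mice with the same number correlated at -0.01 to 0.16. A single difference per group cannot exclude a pairing, and the sample labels name none.

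With 2 mice a group, the intervals among challenged groups were widest for Slc4a1. Its interval for ODNcap-F against Cap-F ran from -0.51 to 1.23, so differences within that range are not excluded. Signals of Epb42 and Rhag lie at background and set no order between groups.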
